A study of Mus musculus with 6 samples.

Results

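Cytochrome P450 genes outside the CYP1 family were described in primary mouse keratinocytes, in which active NFATc1 was compared with an empty vector. The genes were taken by symbol, as named rows of the array that carry a P450 symbol of families 2 to 4 or higher. Cyp51, Cyp4f39, the 3 Cyp26 genes and the CYP1 genes were left out. This gave 79 of the 19935 genes measured, each from 1 row of the array. Among them Cyp2d37-ps and Cyp4f41-ps are pseudogenes by their symbols. A further 7 rows name several genes at once, at least 1 of them a P450, and gave no member. Cyp24a1, Cyp19a1 and Cyp4v3 have no row of their own and were not analysed here.

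The cells were keratinocytes of wild type CD1 mice, cultured in low-calcium medium. In 3 cultures a retrovirus delivered caNFATc1, a human NFATc1 whose mutated autoinhibitory domain makes it constitutively active. In 3 control cultures the cells received the empty MSCV retrovirus. Both groups therefore share the strain, the medium and the infection, and differ in the inserted gene, whose level or share of infected cells the sources used here do not give. The replicates are called biological, and nothing says which animals or cultures they came from, so p-values measure only the spread between these samples. Total RNA was read on single-colour arrays.

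Cytochrome P450 enzymes are haem proteins that use oxygen, and electrons from a reductase, to add an oxygen atom to a lipid, steroid, vitamin or foreign compound. Members of families 2 and 3 are best known for clearing drugs and for making signalling epoxides from arachidonic acid, and those of family 4 for hydroxylating fatty acids. Mitochondrial and sterol-handling members make bile acids, steroid hormones and active vitamin D. The liver holds most of these enzymes, while epidermis has a smaller set that includes CYP2S1 and the epoxygenase CYP2B19.

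The deposited values are log2 values relative to each row's own median over the 6 arrays. They show how a gene differs between arrays, not how strongly it is expressed, so no level, and no comparison of levels between genes, is given. For the same reason the labelled cell type could not be checked from marker levels. In bulk RNA, fewer cells of a type and less RNA per cell cannot be told apart. Deviations were shared between same-numbered arrays of the 2 groups, and both replicate 1 arrays stood apart, with a standard deviation over all rows of 0.263 and 0.309 against 0.165 to 0.211 in the other 4 arrays. Xist, the RNA of the inactive X chromosome, was at -6.00 and -6.05 there and between -0.04 and 0.18 in the others, and the intermediate filament gene Vim at -2.98 and -2.92, against -0.03 to 0.79. Whether what sets these arrays apart bears on the P450 results was not tested. Results are therefore given without and with the replicate number as a block in limma, a linear model that borrows variance across genes. An adjusted p under 0.05 over all 19935 genes was the threshold. Rcan1, a known NFAT target, differed by 3.38 ± 0.19 on the log2 scale (SE, n = 3 per group, limma adjusted p = 0.0113). The array's Nfatc1 row differed by 0.04 ± 0.07, with pairs at 0.12, 0.10 and -0.10 (limma adjusted p = 0.847 with the block). Whether this mouse row reads the human insert was not tested.

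Promoters of the 4 P450 genes that passed the test with the block are shown with the matches of 3 short motifs that each one holds. They run from 250 bases before the transcription start to 50 after it, in RefSeq's GRCm38.p6 build, each read 5′ to 3′ along its gene. Capitals mark every match, on either strand, of GGAAA (the core of NFAT sites, TTTCC on the other strand), TGANTCA (the AP-1 site) and GCGTG (the core bound by the aryl hydrocarbon receptor, CACGC on the other strand).
Cyp2j6 (chr4:96553602-96553901): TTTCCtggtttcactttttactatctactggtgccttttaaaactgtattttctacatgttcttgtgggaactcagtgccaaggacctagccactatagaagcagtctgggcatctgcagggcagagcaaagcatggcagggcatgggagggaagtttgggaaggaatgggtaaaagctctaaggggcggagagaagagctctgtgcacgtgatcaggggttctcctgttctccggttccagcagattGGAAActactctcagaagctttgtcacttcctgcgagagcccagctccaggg
Cyp2w1 (chr5:139352366-139352665): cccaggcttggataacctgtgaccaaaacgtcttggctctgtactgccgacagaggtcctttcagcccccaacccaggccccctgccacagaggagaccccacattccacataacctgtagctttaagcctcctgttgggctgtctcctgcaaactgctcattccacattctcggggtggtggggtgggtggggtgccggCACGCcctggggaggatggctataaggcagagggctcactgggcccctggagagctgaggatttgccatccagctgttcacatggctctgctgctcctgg
Cyp3a13 (chr5:137921570-137921869): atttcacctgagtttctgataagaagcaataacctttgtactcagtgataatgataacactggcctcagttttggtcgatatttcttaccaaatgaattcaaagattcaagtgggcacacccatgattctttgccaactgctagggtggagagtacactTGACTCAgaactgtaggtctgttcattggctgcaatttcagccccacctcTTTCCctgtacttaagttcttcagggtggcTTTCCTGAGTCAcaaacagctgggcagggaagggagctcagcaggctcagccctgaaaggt
Cyp2s1 (chr7:25816476-25816775): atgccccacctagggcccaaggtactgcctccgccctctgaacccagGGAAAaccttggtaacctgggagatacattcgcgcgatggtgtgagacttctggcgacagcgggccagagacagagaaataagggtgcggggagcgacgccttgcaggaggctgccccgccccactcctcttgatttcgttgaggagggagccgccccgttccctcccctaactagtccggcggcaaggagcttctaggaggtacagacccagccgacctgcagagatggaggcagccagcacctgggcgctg

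The Cyp2w1 promoter is on the plus strand and the other 3 are on the minus strand. The Cyp2j6 window lies inside the gene's RefSeq bounds, so RefSeq also holds a start farther upstream. Cyp2j6, the gene that rose, carries GGAAA letters beginning 250 and 2 bases before its start. Cyp2w1 has no GGAAA in this window and 1 GCGTG match, beginning 50 bases before the start. In Cyp3a13 there are 2 GGAAA matches, beginning 41 and 11 bases before the start, and 2 TGANTCA matches, beginning 91 and 6 bases before it. The GGAAA match at 11 and the TGANTCA match at 6 stand directly side by side. Cyp2s1 has 1 GGAAA match, beginning 203 bases before the start.

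These letters are common. Of the 79 genes, 56 had an entry in the promoter table, with 64 promoters among them. GGAAA occurred in 37 of the 64 (57.8%), against 61.3% of all 32851 promoters of this length. TGANTCA occurred in 5 (7.81%), against 7.81% of all. GCGTG occurred in 13 (20.3%), against 32.4%. A match is a string of letters and not a measured binding site.

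As a family the P450 genes did not lie to one side. Of the 79, 44 had a positive and 35 a negative difference (caNFATc1 minus vector control; over all genes 52.6% were negative), and their median was 0.01 on the log2 scale, against -0.01 over all genes. The median differences in pairs 1, 2 and 3 were -0.03, 0.04 and 0.01. With the replicate block limma called 1 P450 gene higher and 3 lower, which is 5.06% of the members, against a background of 6.11% of all genes (3.73% higher and 2.38% lower). The 4 calls became 2, Cyp2j6 and Cyp2w1, when replicate 2 was left out, when arrays were centred on their medians or when they were quantile-normalized. Without the block limma called 0 of the 79, against a background of 0.216%. In that fit 3 of the 79 had an unadjusted p under 0.05, against 2534 of all 19935 genes. The 3 arrays of each group did not overlap for 10 members (12.7%, background 18.7%), and 27 members (34.2%, background 42.9%) had the same sign in all 3 pairs. A difference of at least 1 log2 unit was seen for 0 members, against 1.11% of all genes. The share of P450 genes called was near that of all genes, so these counts are not a result about the family.

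Most members hardly varied between arrays. The highest and lowest of the 6 arrays lay within 0.3 log2 units for 57 of the 79 genes (72.2%), against 44.1% of all genes. The median range was 0.21 for the P450 genes and 0.34 for all genes, and 4 members, Cyp2s1, Cyp2w1, Cyp7b1 and Cyp2j6, spanned at least 1 unit (5.06%, against 8.31% of all genes). Because rows are centred, a flat row may be a gene that is steady or one that is not expressed.

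**Figure D1:**
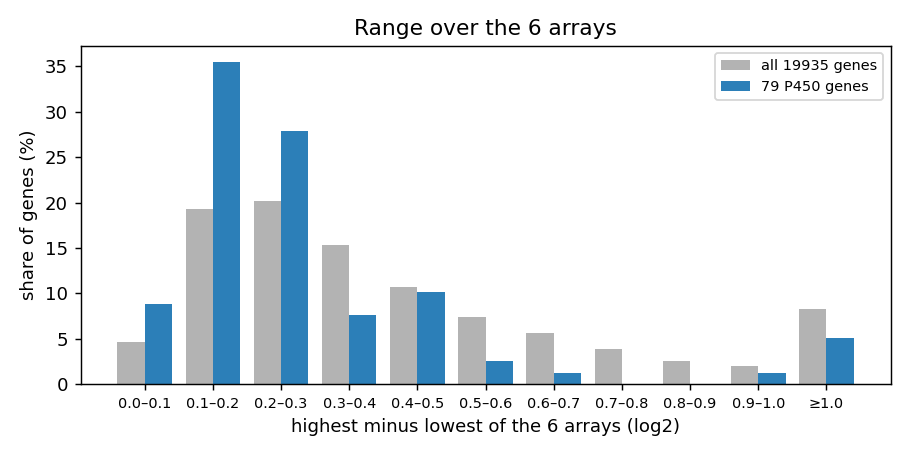
Share of genes (%) by the range of their log2 values over the 6 arrays, for the 79 P450 genes and for all 19935 genes. The P450 genes crowd into the 3 lowest bins, with 72.2% under 0.3 against 44.1% of all genes.

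Cyp2j6 rose in caNFATc1 cells. It belongs to the CYP2J subfamily, whose enzymes oxidise arachidonic acid to epoxides. Its values in the vector control arrays of replicates 1, 2 and 3 were -0.19, -0.30 and -0.15, and in the caNFATc1 arrays 0.75, 0.15 and 0.42. All 3 caNFATc1 arrays lay above all 3 controls, and the caNFATc1 array of replicate 1 was the highest. The log2 difference was 0.65 (1.57-fold), with an SE of 0.11 and an adjusted p of 0.0303 with the block, and an SE of 0.15 and an adjusted p of 0.169 in limma without it. The pairs differed by 0.94, 0.46 and 0.57.

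The neighbouring CYP2J genes did not pass. Cyp2j9 was at -0.26, -0.07 and 0.03 in the controls and -0.03, 0.17 and 0.18 in caNFATc1 cells. Its pairs differed by 0.24, 0.24 and 0.15, and its difference of 0.21 ± 0.06 did not pass (SE, n = 3 pairs, limma adjusted p = 0.129 with the block). Cyp2j12, Cyp2j13, Cyp2j11 and Cyp2j5 differed by between -0.01 and 0.13. Of the 6 CYP2J genes 5 were positive, where over all genes 52.6% were negative. Whether Cyp2j6 differed from the others was not tested.

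Cyp2w1 fell in caNFATc1 cells. Its enzyme is known mainly from fetal gut and tumours. Its control values were -0.08, 0.68 and 0.85 in replicates 1, 2 and 3, and its caNFATc1 values -0.70, -0.06 and 0.06. The groups overlapped, because both replicate 1 arrays were low, but within each pair the caNFATc1 array was the lower by a similar amount, -0.62, -0.73 and -0.79. The log2 difference was -0.72 (1.64-fold lower), with an SE of 0.07 and an adjusted p of 0.00904 with the block, and an SE of 0.31 and an adjusted p of 0.413 in limma without it.

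Cyp2s1 fell with the block, and it varied most of all members. CYP2S1 is an epithelial P450 of skin, airway and gut that the aryl hydrocarbon receptor can induce. Its control values were -0.84, 1.26 and 0.64, and its caNFATc1 values -1.13, 0.36 and -0.36. The replicates differed more than the groups did. The mean of both arrays was -0.99 for replicate 1 and 0.81 for replicate 2, a spread of 1.80, while the group difference was -0.73 (1.66-fold lower). Each pair was negative, at -0.29, -0.91 and -0.99. The SE was 0.14 and the adjusted p 0.0473 with the block, and 0.62 and 0.719 in limma without it. The call was lost in 4 of 5 further settings with the block.

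Cyp3a13, a CYP3A gene of the intestine and liver whose relatives oxidise drugs and steroids, also fell with the block. Its control values were 0.09, 0.66 and 0.21, and its caNFATc1 values -0.22, -0.09 and -0.24. All 3 caNFATc1 arrays lay below all 3 controls. The pairs differed by -0.31, -0.75 and -0.46. The log2 difference was -0.50 (1.42-fold lower), with an SE of 0.10 and an adjusted p of 0.0453 with the block, and an SE of 0.15 and an adjusted p of 0.260 in limma without it. As for Cyp2s1, 4 of 5 further settings with the block lost the call.

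The 4 calls were not equally firm. With the block, Cyp2j6 and Cyp2w1 passed in all 5 further settings run with it, which left out each replicate number in turn, centred the arrays or quantile-normalized them. Their adjusted p lay between 0.0160 and 0.0392 for Cyp2j6 and between 0.0109 and 0.0473 for Cyp2w1. Cyp3a13 and Cyp2s1 were lost without replicate 2 (limma adjusted p = 0.129 for both), without replicate 3 (0.0647 and 0.0700), with arrays centred on their medians (0.0567 and 0.0601) and with quantile normalization (0.0866 and 0.0916). None of the 4 passed in any of the 16 settings without a fixed block, where their adjusted p went no lower than 0.0610, 0.0920, 0.103 and 0.316 for Cyp2j6, Cyp2w1, Cyp3a13 and Cyp2s1.

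**Figure D2:**
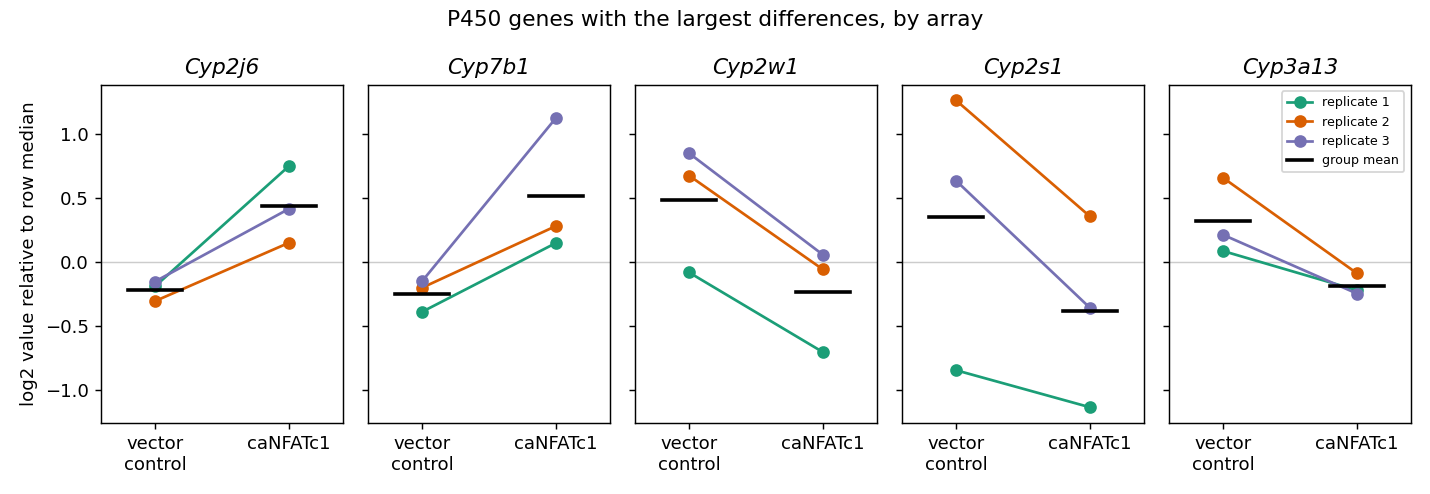
Log2 value relative to the row median in each of the 6 arrays for Cyp2j6, Cyp7b1, Cyp2w1, Cyp2s1 and Cyp3a13. Lines join arrays with the same replicate number and black bars are group means; every line of Cyp2j6 and Cyp7b1 goes up and every line of the other 3 genes goes down, while the replicate 1 arrays of Cyp2w1 and Cyp2s1 lie lowest in their groups.

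Cyp7b1 had the largest difference among the members and lay just outside the threshold. It encodes the oxysterol hydroxylase of the alternative bile acid pathway. Its control values were -0.39, -0.20 and -0.15, and its caNFATc1 values 0.15, 0.28 and 1.12. The groups did not overlap, and the caNFATc1 array of replicate 3 was far above the other 2. The pairs differed by 0.54, 0.48 and 1.27. The log2 difference of 0.76 (1.70-fold) had an SE of 0.16 and an adjusted p of 0.0555 with the block, and an SE of 0.26 and an adjusted p of 0.303 in limma without it. Without replicate 3 the difference was 0.51 and passed with the block (adjusted p = 0.0325). The same pair stood apart in the median of fibroblast markers: the median difference of the 10 measured was -0.05, 0.03 and 0.48 in pairs 1, 2 and 3. In pair 3 these markers ranged from 0.00 for Col6a3 to 1.67 for Col3a1. Their part in the Cyp7b1 difference was not tested.

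**Figure D3:**
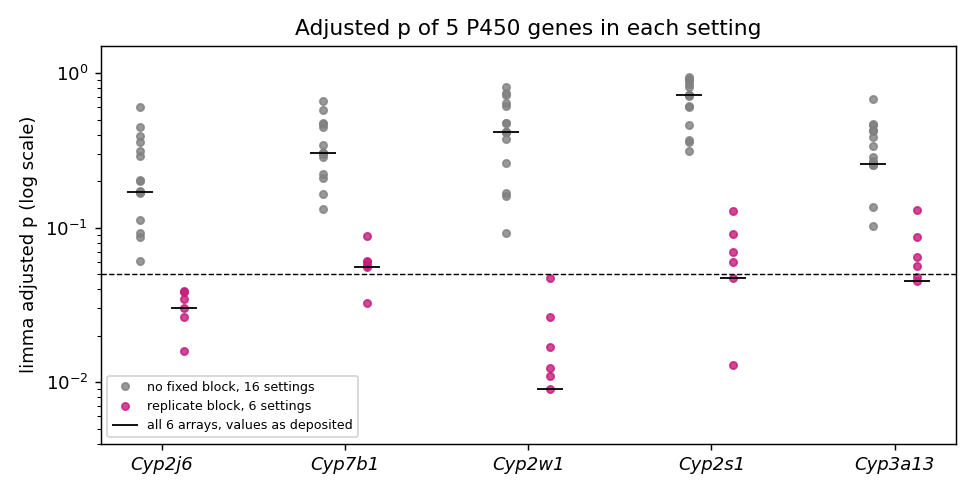
Limma adjusted p, on a log axis, of 5 P450 genes in 16 settings without a fixed block (grey) and 6 with the replicate block (pink); black bars are the fits of all 6 arrays as deposited and the dashed line is 0.05. The pink points of Cyp2j6 and Cyp2w1 all lie under the line, those of Cyp2s1 and Cyp3a13 straddle it, and every grey point lies above it.

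The other 74 members differed by between -0.29 and 0.21, and the lowest adjusted p among them was 0.129 with the block. Their median SE was 0.07. Single 95% intervals with the block reached from -0.65 to 0.47 at their widest, the lower bound being that of Cyp2d11 and the upper that of Cyp4f13. Among the 12 members with the largest differences, Cyp2d11 differed by -0.29 ± 0.15, with pairs at -0.63, -0.36 and 0.13, and passed with the block only without replicate 3, where it differed by -0.50 (limma adjusted p = 0.0494). Cyp2b9 differed by -0.22 ± 0.10, Cyp39a1, an oxysterol hydroxylase, by 0.20 ± 0.09, Cyp20a1, an orphan P450, by -0.20 ± 0.09, Cyp4f13 by 0.19 ± 0.11 and Cyp3a25 by 0.18 ± 0.10 (SE with the block, n = 3 pairs).

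The epidermal epoxygenase Cyp2b19 was among the flat genes. Its values were 0.11, -0.01 and 0.05 in the controls and -0.10, -0.06 and 0.01 in caNFATc1 cells, so the groups overlapped. The difference was -0.10 ± 0.07 (limma adjusted p = 0.518 with the block), with an interval from -0.27 to 0.08. All 5 CYP2B genes had a negative difference, between -0.22 and -0.02, and none passed. CYP2B, CYP2C, CYP2D, CYP2J, CYP3A and CYP4A genes lie in clusters of closely related copies that a probe may not separate. Such counts, also that of the CYP2J genes, may therefore not be of independent genes.

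The CYP2C and CYP2D subfamilies, liver enzymes of drug and arachidonic acid metabolism, had 13 and 10 measured members, and none passed. Their differences lay between -0.11 and 0.10 for CYP2C and between -0.29 and 0.10 for CYP2D. Cyp2e1, which oxidises ethanol and acetone, differed by 0.10 ± 0.07, with control values of -0.02, -0.07 and -0.02 and caNFATc1 values of 0.04, 0.13 and 0.02. Cyp2u1, a fatty acid hydroxylase, differed by 0.05 ± 0.08. Beside Cyp3a13, the 5 other CYP3A genes were all positive, from 0.02 for Cyp3a11 to 0.18 for Cyp3a25, without passing. Among these, Cyp3a44 was at 0.03, -0.08 and -0.11 in the controls and 0.18, -0.03 and 0.08 in caNFATc1 cells, a difference of 0.14 ± 0.07.

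Enzymes of the CYP4 family hydroxylate the ends of fatty acids and eicosanoids. Its 15 measured genes, with the pseudogene Cyp4f41-ps among them, had 7 positive and 8 negative differences between -0.12 and 0.19, and none passed. Cyp4f18, which acts on leukotriene B in neutrophils, differed by -0.12 ± 0.08, with all 3 controls, at 0.25, 0.03 and 0.01, above the caNFATc1 arrays, at -0.03, -0.04 and -0.01. Cyp4b1, a fatty acid hydroxylase of the lung, differed by -0.11 ± 0.08. Only 2 of these 15 genes had a range of 0.3 or more over the 6 arrays.

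Vitamin D is made in the epidermis, and keratinocytes can activate it. Cyp2r1, which adds the first hydroxyl group, differed by 0.05 ± 0.06, with an interval from -0.10 to 0.21. Cyp27b1, which makes the active hormone, was at 0.17, 0.02 and -0.02 in the controls and -0.02, -0.05 and 0.02 in caNFATc1 cells. Its difference was -0.07 ± 0.07, with an interval from -0.26 to 0.11 (limma adjusted p = 0.668 with the block). Cyp27a1, the mitochondrial sterol hydroxylase, differed by -0.09 ± 0.07.

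The sterol and steroid enzymes other than Cyp7b1 and Cyp39a1 (0.20 ± 0.09) differed little. Cyp7a1, the rate-limiting enzyme of bile acid synthesis, Cyp8b1, which shapes the bile acid mixture, and Cyp46a1, a cholesterol hydroxylase of the brain, differed by 0.00 ± 0.07, -0.01 ± 0.06 and -0.02 ± 0.07. Of 5 steroid hormone genes none passed, and their differences lay between -0.07 and 0.05. Cyp11a1, which starts steroid synthesis from cholesterol, was at 0.23, 0.02 and -0.18 in the controls and -0.02, -0.08 and 0.09 in caNFATc1 cells, so its pairs differed in sign. The androgen-forming Cyp17a1 differed by 0.02 ± 0.10, and its highest value was 0.39 in caNFATc1 replicate 2.

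**Figure D4:**
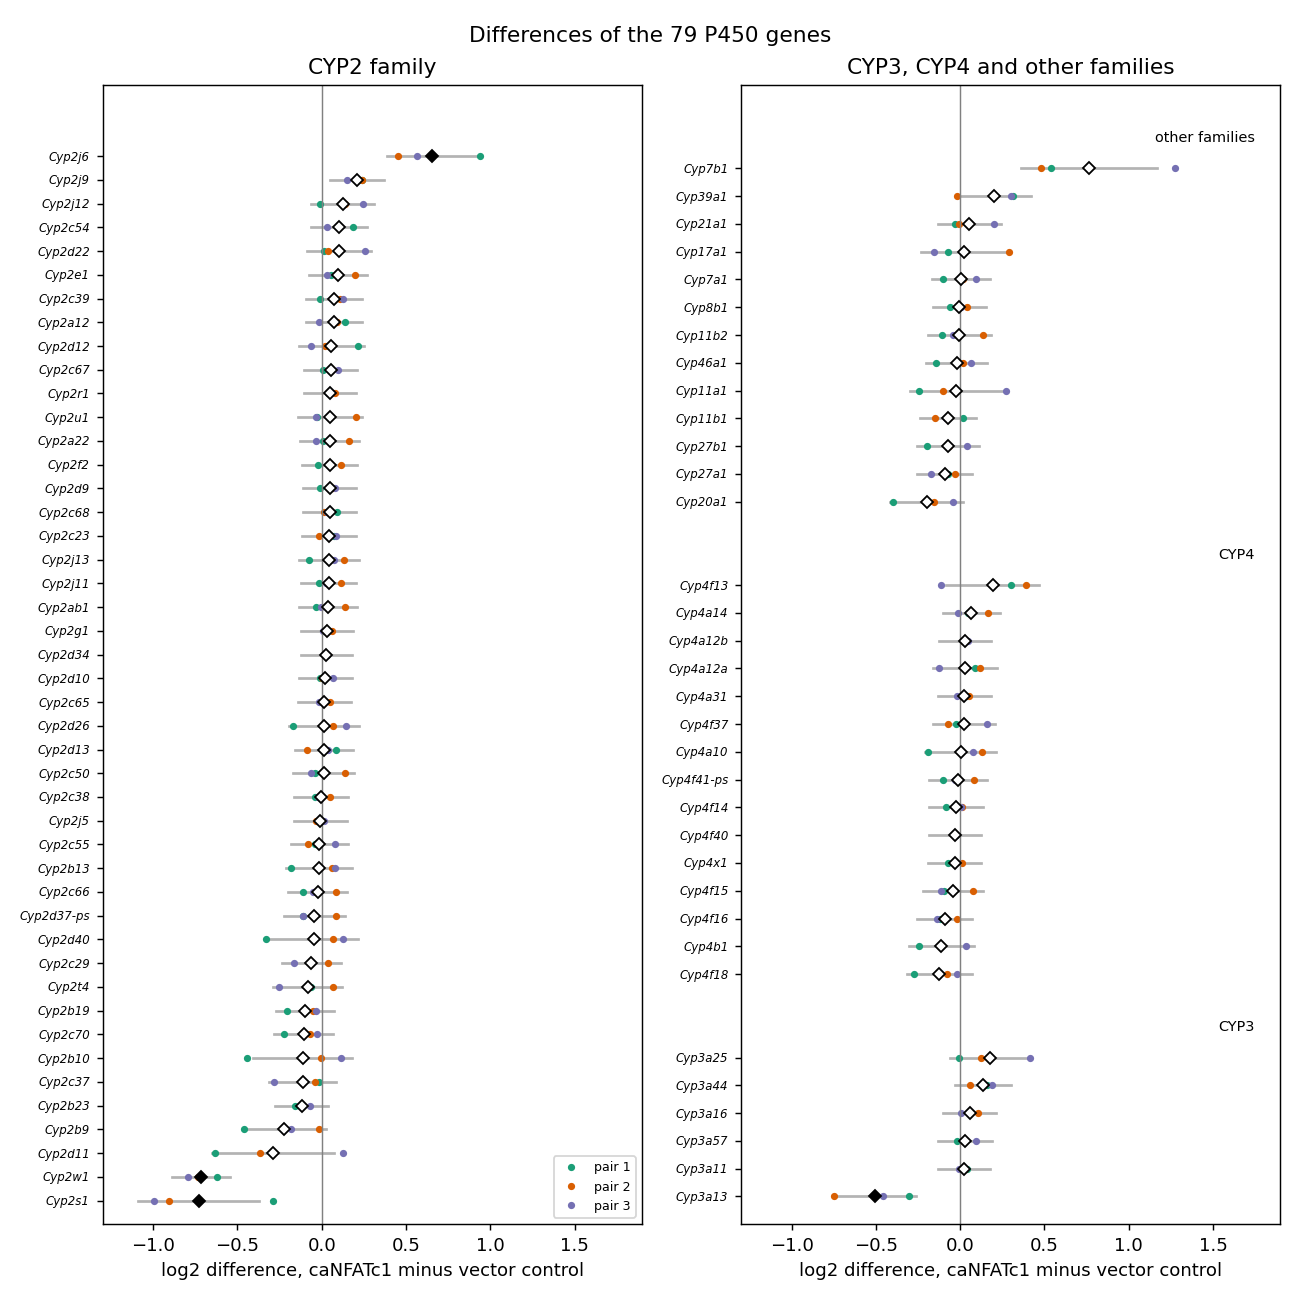
Log2 difference, caNFATc1 minus vector control, of the 79 P450 genes. Coloured points are the 3 same-numbered pairs, diamonds their mean (black where the adjusted p with the replicate block was under 0.05) and grey lines the 95% interval with the block; 74 genes lie between -0.29 and 0.21, and Cyp2j6, Cyp7b1, Cyp2w1, Cyp2s1 and Cyp3a13 lie outside.

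Genes that work with P450 enzymes were also counted. Over all genes, 3.73% were called higher and 2.38% lower with the block, and 0.216% passed without it. An unadjusted p under 0.05 was seen in limma for 4287 of the 19935 genes with the block and for 2534 without it. The lists are short and hold 0 to 2 calls each, so these counts are not read as results about the lists. Of 4 epoxide hydrolases, which open the epoxides that P450 enzymes make, 1 rose with the block and none passed in limma without it (1 at an unadjusted p under 0.05). Ephx1, the microsomal hydrolase of foreign epoxides, was at -0.81, -0.30 and -0.16 in the controls and 0.16, 0.32 and 0.40 in caNFATc1 cells, with no overlap. Its difference was 0.71 ± 0.10 (adjusted p = 0.0204 with the block, 0.188 without). Ephx2, the soluble hydrolase of lipid epoxides, differed by -0.36 ± 0.10 without passing (adjusted p = 0.111 with the block), with pairs at -0.59, -0.11 and -0.37.

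Of 7 electron donors and haem-binding partners measured, 2 were positive and 5 negative, and none passed with or without the block (2 at an unadjusted p under 0.05 in each limma fit). Cyb5b, the mitochondrial cytochrome b5, differed by 0.62 ± 0.14 and Cyb5a, the microsomal form, by -0.30 ± 0.10 (adjusted p = 0.0583 and 0.168 with the block). The reductase gene Por was not analysed here. Of 13 haem synthesis and breakdown genes none passed either fit. At an unadjusted p under 0.05 there were 5 with the block and 1 without, against 4287 and 2534 of all 19935 genes. Alas1, the rate-limiting enzyme of haem synthesis, differed by -0.02 ± 0.06.

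Of 20 other genes of arachidonic acid metabolism, 5 were positive and 15 negative with a median of -0.03. With the block 1 fell (5%, against 2.38% of all genes). Pla2g4a, the phospholipase that releases arachidonic acid, fell by 0.34 ± 0.07 (adjusted p = 0.0431 with the block, 0.793 without), with both replicate 1 arrays far below the others. Of 16 nuclear receptors that can induce P450 genes, 12.5% passed with the block, against 6.11% of all genes. Rora rose by 0.35 ± 0.07 and the vitamin D receptor gene Vdr fell by 0.42 ± 0.07 (adjusted p = 0.0424 and 0.0334 with the block, 0.203 and 0.721 without). Both replicate 1 arrays of Vdr, at 0.97 and 0.49, lay above all the others, which were between -0.47 and 0.02. Nr1i2 and Nr1i3, the receptors for foreign compounds in liver, differed by 0.05 and 0.00. Of 8 vitamin D genes outside the P450 family, Vdr, which is on both lists, was the one that passed (12.5%, against 6.11% of all genes).

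Of 18 steroid and sterol enzymes outside the P450 family, 7 were positive and 11 negative. With the block 2 rose (11.1%, against 3.73% of all genes). Hsd3b7 follows CYP7B1 in bile acid synthesis. It was at -0.24, -0.21 and -0.16 in the controls and 0.16, 0.28 and 0.50 in caNFATc1 cells, without overlap, a difference of 0.51 ± 0.08 (adjusted p = 0.0256 with the block, 0.110 without). Hsd17b11, a lipid droplet dehydrogenase, rose by 0.72 ± 0.09 with the block (adjusted p = 0.0182, and 0.642 without). Its replicate 1 arrays, at -1.29 in the control and -0.55 with caNFATc1, both lay below the others.

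Markers of cell types that could add P450 transcripts were compared, against a background over all genes of 3.73% higher and 2.38% lower with the block. The background at an unadjusted p under 0.05 in limma was 4287 of 19935 genes with the block and 2534 without it. Of 9 hepatocyte, 10 sebocyte, 8 melanocyte, 10 leukocyte and 8 endothelial markers none passed with or without the block, with 1 leukocyte marker at an unadjusted p under 0.05 in each limma fit and 0 in the other 4 lists. Of 10 fibroblast markers 7 were positive with a median of 0.14, and Col3a1 rose by 1.20 ± 0.19 with the block (adjusted p = 0.0296, and 0.108 without), by 1.33, 0.62 and 1.67 in the pairs. Of 15 keratinocyte markers 6 were positive and 9 negative with a median of -0.02, and Trp63 rose by 0.42 ± 0.08 with the block (adjusted p = 0.0444, and 0.322 without). The list ran from -0.58 for Krt15 to 1.69 for Lgals7, and neither passed (limma adjusted p = 0.132 and 0.0538 with the block). The part of other cell types in the P450 differences was not tested.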

How the data were processed

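The values analysed are log2 values that the authors deposited for 6 arrays and 28815 rows. Per the submitters' processing notes, RMA was used and mm8 was the build; the software and any filter are not stated in the sources used here. Base 2 was taken from RMA. Every row's median over the 6 arrays was 0 within 1e-06. Rows were named through the platform annotation: 21780 carried 1 gene symbol, 1605 several and 5430 none. Rows of a gene were averaged, giving 19935 genes; no symbol changed through Entrez numbers in the GRCm38.p6 table.

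Groups were compared with limma 3.58.1 in R 4.3.3 (lmFit and eBayes, 2-sided), group as the only term, with Benjamini-Hochberg adjustment over all genes and a threshold of 0.05. A second fit added the replicate number as a block. Deviations from the group means of same-numbered arrays correlated at 0.71, 0.61 and 0.57 for replicates 1, 2 and 3, and those of other pairings lay between -0.60 and 0.18. All 3 were over 0.1, so same-numbered arrays were treated as pairs, and blocked values are printed. Differences with "±" carry the block's SE unless said otherwise. The code was tested on simulated data. The number of arrays limits the precision.

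The members and lists were chosen with earlier results of these data known. Named members are those past either fit, the 12 with the largest differences and 16 of 19 fixed genes with a row of their own; other members are named as examples of their subfamily, after their values were seen. Listed partners and markers named are those past the blocked fit. Ephx2, Cyb5a, Cyb5b, Alas1, Nr1i2, Nr1i3, Rcan1, Nfatc1, Vim, Col6a3, Krt15 and Lgals7 were added after values were seen.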

Additional observations from a re-analysis of the deposited data

How the results depend on the processing

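The 79 P450 genes held 0 calls in limma without a fixed block under every scaling, weighting, row rule and left-out array run, and 4 with the replicate block (2 with the block and arrays centred on their medians, and 2 with the block and quantile normalization, both settings added after the data were seen). Leaving out replicates gave 0 without the block and 4, 2 and 4 with the block and without replicate 1, 2 and 3. The calls without replicate 3 were Cyp2j6, Cyp2w1, Cyp7b1 and Cyp2d11, so Cyp3a13 and Cyp2s1 were not among them. Over all genes the fit without the block called 43, against 1219 with it, 433 with a random block, 169 with quantile normalization, 264 with array weights, 1157 with the block and centred arrays and 1030 with the block and quantile normalization, 0 to 83 with replicates left out, and 711, 743 and 1086 with the block and without replicate 1, 2 and 3. In the settings with 0 calls, those without replicate 3 and without vector control replicate 3, limma gave 1580 and 2113 genes at an unadjusted p under 0.05. The members' median difference lay between -0.01 and 0.03 in all settings.

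Of the 79 members, 34 changed sign in at least 1 setting. None of them was called in any setting, and their differences were at most 0.11 in size. Of the 22 named members, 4 were among them. Cyp11a1 (-0.03) was 0.0112 with quantile normalization, with and without the block, 0.0409 with array weights, 0.0850 and 0.0132 with the block and without replicate 1 and 2, and -0.175 to 0.0850 with replicates left out. Cyp46a1 (-0.02) was 0.000276 with quantile normalization, with and without the block, 0.0340 with array weights, 0.0391 with the block and without replicate 1, and -0.0720 to 0.0391 with replicates left out. Cyp17a1 (0.02) ranged from -0.156 to 0.141 and Cyp2u1 (0.05) from -0.0295 to 0.111 with replicates left out, and without replicate 2 they were -0.113 and -0.0295 with the block. The cause was not tested. The row with the highest mean and a filter on dim genes were planned and not run, since centred rows carry no brightness.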

Other observations

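The 7 rows that name several genes, and so gave no member, were flat. The row shared by Cyp2a5 and Cyp2a4 differed by -0.05, and the row shared by Cyp4v3 and the plasma kallikrein gene Klkb1 by 0.08, with pairs at 0.11, 0.13 and -0.01. The rows shared within the CYP2C, CYP3A and CYP4A clusters differed by between 0.01 and 0.06.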
